A study of Mus musculus with 12 samples.

Results

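The immunity-related GTPases (IRGs) of mouse macrophages are described here by 9 genes, Irgm1, Irgm2, Igtp, Iigp1, Tgtp1, Tgtp2, Gm12250, Ifi47 and Olfr56, out of 55335 rows in a table of gene expression. The genes were chosen by symbol, with earlier results of these data known. Olfr56 is an odorant receptor gene rather than a GTPase, and it is included because it overlaps Ifi47 on the same strand. RNA of bone marrow-derived macrophages (BMDMs), cells cultured from marrow in macrophage colony-stimulating factor, was sequenced in 12 libraries, 3 in each of 4 groups. The groups were wild-type BMDMs without stimulation, wild-type BMDMs with lipopolysaccharide (LPS) and ATP, Nlrp3-/- BMDMs without stimulation and Nlrp3-/- BMDMs with LPS and ATP. LPS was given for 4 hours and ATP for the 30 min that followed according to the labels, whereas the methods of the study give longer times for both. The labels give no age or sex of the mice, though the methods of the study state an age for the C57BL/6 mice used for BMDMs. The labels do not say whether replicates came from separate animals, so the p-values measure the spread between these libraries, which may be technical. Wild-type C57BL/6 mice and Nlrp3-/- mice came from different suppliers.

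IRGs are large GTPases that interferons induce in mouse cells. The effector IRGs, such as Iigp1 (Irga6), Tgtp1 and Tgtp2 (Irgb6), Gm12250 (Irgb10) and Ifi47 (Irgd), bind GTP, load onto the membrane around a pathogen such as Toxoplasma or Chlamydia and help to break it. Irgm1, Irgm2 and Igtp (Irgm3) stay on the membranes of the cell, where they keep the effectors inactive. LPS reaches the same genes because macrophages that sense it release interferon, which acts through JAK kinases and STAT factors. The factors activated in this way bind DNA at the gamma-activated site (GAS) or at the interferon-stimulated response element (ISRE).

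Of the 9 genes, 8 lie on chromosome 11, which also carries Nlrp3, in 2 clusters. On GRCm38, Irgm1 (48861968 to 48871683), Tgtp1 (48985327 to 48994172), Tgtp2 (49057194 to 49064206), Ifi47 (49076587 to 49096974) and Olfr56 (48978889 to 49135387) lie between 10.4 and 10.7 Mb from Nlrp3. Gm12250 (58187739 to 58189012), Igtp (58199556 to 58207591) and Irgm2 (58199618 to 58222782) lie between 1.32 and 1.35 Mb from it. GENCODE M21 lists Gm12250 as a processed pseudogene and RefSeq lists it as protein-coding, and the others are protein-coding in both.

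Sequence before the start site is shown because most of these promoters hold both interferon motifs. RefSeq promoter windows of 250 bases before to 50 bases after the start site (GRCm38.p6) were found for 8 of the 9 genes, and the one for Iigp1 was not used here. In each line below, 60 bases are given from 5′ to 3′ in the direction of transcription. Capitals mark matches on either strand to the ISRE core (GAAANNGAAA) or to the GAS (TTCNNNGAA).
Irgm1, chr11:48871421-48871480, minus strand: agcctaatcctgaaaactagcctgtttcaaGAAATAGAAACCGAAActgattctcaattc
Irgm2, chr11:58214888-58214947, plus strand: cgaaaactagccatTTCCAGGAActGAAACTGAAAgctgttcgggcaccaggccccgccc
Igtp, chr11:58199496-58199555, plus strand: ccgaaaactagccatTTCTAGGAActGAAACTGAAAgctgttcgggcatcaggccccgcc
Tgtp1, chr11:48992289-48992348, minus strand: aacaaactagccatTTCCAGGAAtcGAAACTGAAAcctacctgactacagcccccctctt
Tgtp2, chr11:49064248-49064307, minus strand: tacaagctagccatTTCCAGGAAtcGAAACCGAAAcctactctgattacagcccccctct
Gm12250, chr11:58183749-58183808, plus strand: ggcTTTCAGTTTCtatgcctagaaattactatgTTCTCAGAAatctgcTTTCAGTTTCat

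An ISRE core was found in 6 of the 8 windows and in 3.44% of all 32851 promoter windows of the same length. A GAS was found in 5 of the 8 and in 8.3% of all windows, and both motifs were found in 5 of the 8 and in 0.454% of all. Irgm1 held 2 overlapping ISRE cores and no GAS. In Irgm2, Igtp, Tgtp1 and Tgtp2, the GAS was followed after 2 bases by the ISRE core on the same strand. That arrangement was looked for after the sequences had been read. It occurred in 5 of the 32851 windows (0.0152%), and the fifth belonged to Gm12185, another IRG gene. The exons of Gm12185 overlap those of Tgtp1 by 223 bases. In GENCODE, Gm12185 starts at 48992226 on the minus strand, inside the Tgtp1 window. The fifth match may therefore be the Tgtp1 site counted again. Tgtp1 and Tgtp2 are near copies, and the longest transcripts of Igtp and Irgm2 are 84.0% identical over 682 bases, so the letters shared within each pair are not independent. The windows of Ifi47 and Olfr56 held neither motif. Those of Irgm1, Tgtp1 and Irgm2 lie inside the gene bodies that GENCODE gives, so they do not cover the most upstream starts listed there. The Ifi47 window covers the most upstream of several annotated starts, the Gm12250 window lies upstream of the gene body that GENCODE gives, and the Olfr56 window lies near the downstream end of the body that GENCODE gives, so that it does not cover the start listed there.

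**Figure D1:**
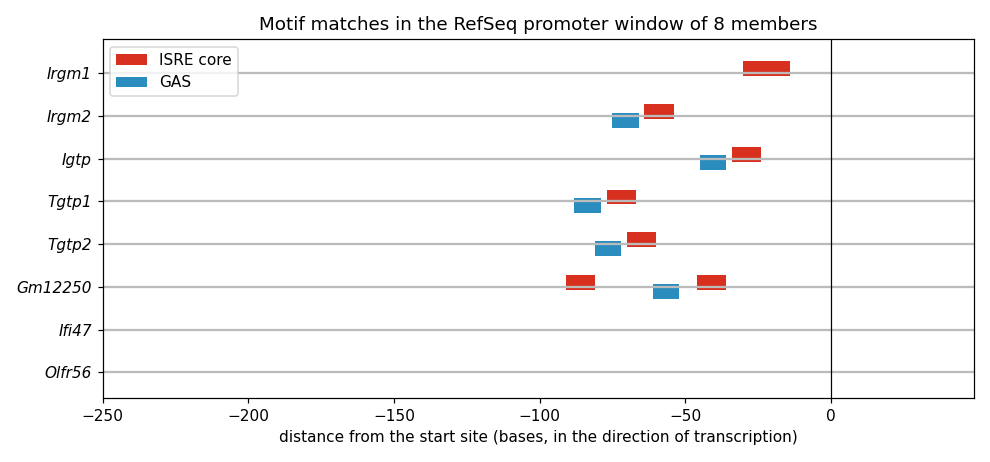
Matches to the ISRE core (red) and the GAS (blue) in the RefSeq promoter windows of 8 genes, plotted by distance from the start site in bases. All matches lie within 100 bases before the start site, and Ifi47 and Olfr56 have none.

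Expression was given as FPKM, fragments scaled to the length of the gene and to the mapped fragments of the library, which allows levels to be compared between genes. In unstimulated wild-type BMDMs the levels ran in the order Irgm1, Irgm2, Igtp, Gm12250, Ifi47, Tgtp2, Tgtp1, Iigp1 and Olfr56, from a mean of 13.9 FPKM for Irgm1 to 1.49 FPKM for Iigp1 and 0.0145 FPKM for Olfr56. The libraries of neighbours overlapped for Gm12250 and Ifi47 and for Tgtp2 and Tgtp1. With LPS+ATP the order in wild-type BMDMs became Igtp, Tgtp2, Tgtp1, Gm12250, Irgm1, Irgm2, Iigp1, Ifi47 and Olfr56. Igtp stood alone at a mean of 140 FPKM, and the libraries of Tgtp2, Tgtp1, Gm12250 and Irgm1 overlapped from neighbour to neighbour. Those of Irgm2, Iigp1 and Ifi47 did too, Ifi47 only through replicate 3 at 90.4 FPKM (15.0 and 14.5 FPKM in the others). Tgtp1 and Tgtp2 are near copies that reads cannot separate with certainty, and their sum was 214, 217 and 224 FPKM, above Igtp. The 3 regulatory IRGs were thus the highest of the family in wild-type BMDMs before stimulation, and most effectors reached about the same level after it.

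In unstimulated Nlrp3-/- BMDMs the order was Igtp, Ifi47, Irgm1, Irgm2, Tgtp2, Gm12250, Iigp1, Tgtp1 and Olfr56, and only the libraries of Igtp and Ifi47 overlapped between neighbours. In stimulated Nlrp3-/- BMDMs it was Igtp, Tgtp2, Irgm2, Iigp1, Gm12250, Irgm1, Tgtp1, Ifi47 and Olfr56, with overlap between neighbours only for Iigp1 and Gm12250. The summed FPKM of the 9 genes was between 55.3 and 58.7 in the 6 unstimulated libraries, between 749.9 and 837 in wild-type and between 1095 and 1120 in Nlrp3-/- BMDMs with LPS+ATP.

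**Figure D2:**
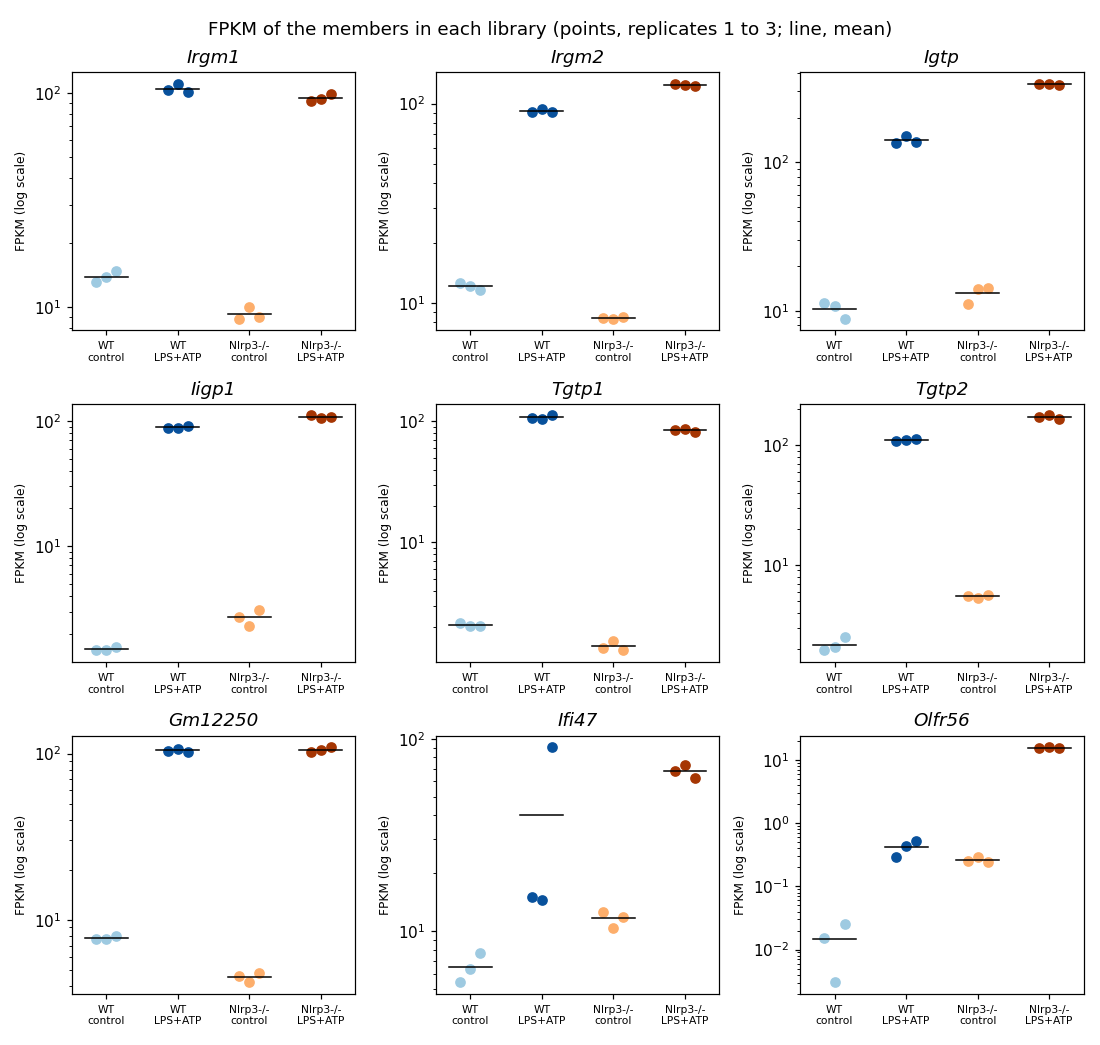
FPKM of the 9 genes in each of the 12 libraries on log axes, with points for replicates 1 to 3 and a line for the mean of each group. Each gene other than Olfr56 rose with LPS+ATP in both genotypes, Igtp reached 332 to 339 FPKM in Nlrp3-/- BMDMs, and one wild-type library stands apart for Ifi47.

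The question of the stimulation comparison was how each gene changed with LPS+ATP in each genotype. Differences were tested with limma on log2(FPKM + 1) over the 12622 genes with at least 1 FPKM in at least 3 libraries, and a gene was called where its adjusted p was under 0.05 and its log2 fold change was 1 or more in size. The pseudocount of 1 makes fold changes of weakly expressed genes too small. The 8 genes other than Olfr56 passed the filter in every library. All 8 rose in wild-type BMDMs, where 8.25% of tested genes rose, and all 8 rose in Nlrp3-/- BMDMs, where 6.64% did. Their median log2 fold change was 3.62 in wild-type and 4.43 in Nlrp3-/- BMDMs, beside -0.25 and -0.24 over all tested genes. Olfr56 passed the filter only through the stimulated Nlrp3-/- libraries, and it is described apart. Over all tested genes, 1041 rose and 1411 fell in wild-type BMDMs (19.4% in either direction), against 1399 and 893 after median-ratio scaling. In Nlrp3-/- BMDMs 838 rose and 1036 fell (14.8%), against 1097 and 600 after that scaling, which moved the median of all tested genes up by 0.24 in both genotypes. In bulk RNA, a change in the number of cells of a type cannot be told apart from a change in RNA per cell.

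Among the regulatory IRGs, Irgm1, which also acts in autophagy and mitochondrial quality control, was 13.1, 13.8 and 14.7 FPKM in unstimulated and 103, 110 and 100.3 FPKM in stimulated wild-type BMDMs. In Nlrp3-/- BMDMs it was 8.83, 9.96 and 9.02 FPKM without stimulation and 91.8, 94.0 and 98.2 FPKM with it. The groups did not overlap, and the ratio of the means of stimulated and unstimulated cells was 7.53 in wild-type and 10.2 in Nlrp3-/- BMDMs. The log2 fold change was 2.83 ± 0.0550 (SE) in wild-type and 3.22 ± 0.0550 in Nlrp3-/- BMDMs. Irgm1 was lower in Nlrp3-/- than in wild-type BMDMs without stimulation (-0.53, adjusted p = 9.47e-06 by limma), under the fold limit. With LPS+ATP the difference was -0.14 (adjusted p = 0.056 by limma), with a 95% interval from -0.26 to -0.02. After median-ratio scaling it was -0.36 (adjusted p = 0.000375 by limma). The adjusted p also came under 0.05, between 0.0381 and 0.0488 by limma, without replicate 1 or 3 of unstimulated wild-type, replicate 3 of stimulated wild-type or replicate 2 of unstimulated Nlrp3-/- BMDMs.

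Irgm2 was 12.6, 12.1 and 11.5 FPKM in unstimulated wild-type BMDMs and 8.41, 8.32 and 8.50 FPKM in unstimulated Nlrp3-/- BMDMs. With LPS+ATP it reached 90.5, 94.4 and 90.3 FPKM in wild-type and 126, 124 and 123 FPKM in Nlrp3-/- BMDMs. Irgm2, which also limits the response of macrophages to cytosolic LPS, was thus lower in Nlrp3-/- BMDMs before stimulation and higher after it, with no overlap of libraries in either state. Its rise was 2.83 in wild-type and 3.74 in Nlrp3-/- BMDMs on the log2 scale. The genotype difference was -0.47 ± 0.0352 (SE) without stimulation and 0.43 ± 0.0352 with it, and the second was 0.22 after median-ratio scaling. The interaction of genotype and stimulation, which is the difference of these differences, was 0.91 (adjusted p = 4.59e-07 by limma) and under the fold limit.

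Igtp had the highest level of any single gene of the family after stimulation, though the summed level of Tgtp1 and Tgtp2 was higher in wild-type BMDMs. It was 11.2, 10.7 and 8.84 FPKM in unstimulated wild-type, 134, 149 and 137 FPKM in stimulated wild-type, 11.1, 13.9 and 14.2 FPKM in unstimulated Nlrp3-/- and 336, 339 and 332 FPKM in stimulated Nlrp3-/- BMDMs. The rise was 3.66 in wild-type and 4.59 in Nlrp3-/- BMDMs on the log2 scale. The unstimulated groups overlapped, and the stimulated Nlrp3-/- libraries lay 2.39-fold above the stimulated wild-type libraries on average. That genotype difference was called (1.25 ± 0.0952 SE, adjusted p = 9.23e-07 by limma), and it was 1.04 after median-ratio scaling. Without stimulation it was 0.32 (adjusted p = 0.0167 by limma), while after median-ratio scaling it was 0.14 with an adjusted p of 0.28. It was between 0.23 and 0.27, with adjusted p between 0.0639 and 0.0679 by limma, without replicate 3 of unstimulated wild-type or replicate 2 or 3 of unstimulated Nlrp3-/- BMDMs. The interaction was 0.93 ± 0.135 (SE), just under the fold limit, and it was 1.03 and called without replicate 3 of the unstimulated wild-type group. Igtp and Irgm2 share 162 exonic bases on the same strand (8.01% of the exons of Igtp), so some reads could have been assigned to either.

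Iigp1, which lies on chromosome 18 (60376027 to 60392634 on GRCm38) and encodes one of the best studied IRG effectors, rose about as steeply as Tgtp1 and Tgtp2 in wild-type BMDMs. It was 1.47, 1.46 and 1.55 FPKM without stimulation and 88.5, 88.5 and 91.2 FPKM with it, a ratio of means of 59.8 and a log2 fold change of 5.18 ± 0.0641 (SE). In Nlrp3-/- BMDMs it was 2.73, 2.31 and 3.10 FPKM without and 111, 105 and 107 FPKM with LPS+ATP, a ratio of means of 39.7 and a log2 fold change of 4.88. Iigp1 was higher in Nlrp3-/- BMDMs in both states, by 0.57 (adjusted p = 2.11e-05 by limma) without stimulation and by 0.26 (adjusted p = 0.00546 by limma) with it. Neither difference reached the fold limit, and median-ratio scaling brought the second to 0.05, with an adjusted p of 0.536.

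Gm12250, known as Irgb10 and described in the release of bacterial ligands for inflammasomes, was 7.69, 7.63 and 8.01 FPKM in unstimulated wild-type and 4.60, 4.21 and 4.77 FPKM in unstimulated Nlrp3-/- BMDMs. With LPS+ATP it was 104, 107 and 103 FPKM in wild-type and 103, 105 and 109 FPKM in Nlrp3-/- BMDMs, so that the stimulated libraries overlapped and the unstimulated ones did not. The genotype difference was -0.67 (adjusted p = 1.61e-07 by limma) without stimulation and 0.01, with a 95% interval from -0.08 to 0.11, with it. Median-ratio scaling turned the second to -0.20, with an adjusted p of 0.00159. The rise with stimulation was 3.59 in wild-type and 4.27 in Nlrp3-/- cells on the log2 scale, and the interaction was 0.68 (adjusted p = 1.18e-05 by limma).

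Tgtp1 and Tgtp2 encode the effector Irgb6, first described in T cells, from a tandem pair of genes. Their longest transcripts are 99.8% identical over 2811 bases, so that reads cannot be placed on one copy with certainty. Tgtp1 was 2.14, 2.04 and 2.05 FPKM in unstimulated wild-type, 106, 105 and 112 FPKM in stimulated wild-type, 1.33, 1.54 and 1.28 FPKM in unstimulated Nlrp3-/- and 84.2, 86.2 and 82.4 FPKM in stimulated Nlrp3-/- BMDMs. Tgtp2 was 1.93, 2.06 and 2.50 FPKM, 108, 111 and 113 FPKM, 5.53, 5.33 and 5.66 FPKM, and 172, 178 and 165 FPKM in the same groups. The copies had about the same level in wild-type BMDMs and parted in Nlrp3-/- BMDMs, Tgtp1 downwards and Tgtp2 upwards. Stimulation raised Tgtp1 by 5.14 and 5.16 and Tgtp2 by 5.15 and 4.73 on the log2 scale in wild-type and Nlrp3-/- BMDMs. For Tgtp1 the genotype difference was -0.37 without and -0.35 with stimulation. For Tgtp2 it was 1.05 (called, adjusted p = 6.49e-08 by limma) and 0.63. The call of Tgtp2 was lost without replicate 1 of the unstimulated wild-type group (0.99) and after median-ratio scaling (0.87).

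Summed over both copies, the level was 4.07, 4.10 and 4.55 FPKM in unstimulated wild-type and 6.86, 6.87 and 6.94 FPKM in unstimulated Nlrp3-/- BMDMs. With LPS+ATP the sum was 214, 217 and 224 FPKM in wild-type and 256, 264 and 248 FPKM in Nlrp3-/- BMDMs. The sum was higher in Nlrp3-/- BMDMs in both states, by 0.59 (adjusted p = 3.06e-07 by limma) without and by 0.23 (adjusted p = 0.000718 by limma) with LPS+ATP, while Tgtp1 alone was lower. After median-ratio scaling the difference of the sum was 0.42 without stimulation and 0.01, with an adjusted p of 0.860 by limma, with it. Stimulation raised the sum by 5.39 on the log2 scale in wild-type and by 5.02 in Nlrp3-/- BMDMs.

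Ifi47, an IRG effector that gamma interferon induces, was 5.40, 6.30 and 7.66 FPKM in unstimulated wild-type BMDMs. In stimulated wild-type BMDMs it was 15.0, 14.5 and 90.4 FPKM, so that replicate 3 stood apart from both others by 6.22-fold between the highest and the lowest library. Among 12519 tested genes with values above 0 in these 3 libraries, 75 had a range at least as wide, Ifi47 included. Among the 5766 with a mean of at least 5 FPKM, 5 did, again with Ifi47 included. Ifi47 was 12.6, 10.4 and 11.9 FPKM in unstimulated and 68.3, 72.7 and 62.4 FPKM in stimulated Nlrp3-/- BMDMs. The other 7 GTPase genes were spread at most 1.11-fold over the stimulated wild-type libraries, and the cause of the value of Ifi47 was not tested.

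That library set the error of every comparison of Ifi47. With it, stimulation raised Ifi47 by 1.94 ± 0.526 (SE) in wild-type and by 2.45 ± 0.526 in Nlrp3-/- BMDMs, and the genotype difference with LPS+ATP was 1.28 with a 95% interval from 0.11 to 2.44 (adjusted p = 0.067 by limma). Without it, the rise in wild-type BMDMs was 1.09, the genotype difference with LPS+ATP was 2.12 (adjusted p = 4.06e-07 by limma) and the interaction was 1.35 (adjusted p = 0.00023 by limma), both called. The genotype difference without stimulation was 0.77 in either case, with an adjusted p of 0.263 by limma with the library and 0.000197 without it.

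Olfr56 was 0.0152, 0.00303 and 0.0254 FPKM in unstimulated wild-type and 0.292, 0.437 and 0.520 FPKM in stimulated wild-type BMDMs. It was 0.256, 0.294 and 0.240 FPKM in unstimulated Nlrp3-/- and 15.3, 16.0 and 15.7 FPKM in stimulated Nlrp3-/- BMDMs. The stimulated Nlrp3-/- libraries were thus the only ones over 1 FPKM. As Olfr56 passed the filter only through the group in which it is high, its differences are given as a description, with no test. On the log2 scale the rise in Nlrp3-/- BMDMs was 3.72, the genotype difference with LPS+ATP 3.56 and the interaction 3.24. In wild-type BMDMs the rise was 0.48 on this scale, 2.15 with a pseudocount of 0.1 and 1.21 as TPM, which rescales each library to one total. Leaving out any of the stimulated Nlrp3-/- libraries removed the gene through the filter.

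Olfr56 and Ifi47 share an exon of 111 bases on chromosome 11 (49087034 to 49087144), which 4 of the 5 transcripts of Ifi47 and all 6 transcripts of Olfr56 contain in whole or in part. It makes up 4.49% of the exons of Ifi47 and 2.45% of those of Olfr56, and Olfr56 also spans Tgtp1 and Tgtp2, which lie on the opposite strand. Replicate 3 of stimulated wild-type BMDMs, which was high for Ifi47, had 0.520 FPKM of Olfr56, against 0.292 and 0.437 FPKM in its group. Summed over both genes, the genotype difference with LPS+ATP was 1.55 and the interaction 0.76. The sum takes in Olfr56, which is high only in stimulated Nlrp3-/- BMDMs, so its values are given as a description, with no test. The sum was 15.3, 15.0 and 90.9 FPKM in stimulated wild-type BMDMs, so that the same library set its error. Without that library the genotype difference of the sum with LPS+ATP was 2.38 and the interaction 1.59. After median-ratio scaling the genotype difference of the sum with LPS+ATP was 1.34.

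**Figure D3:**
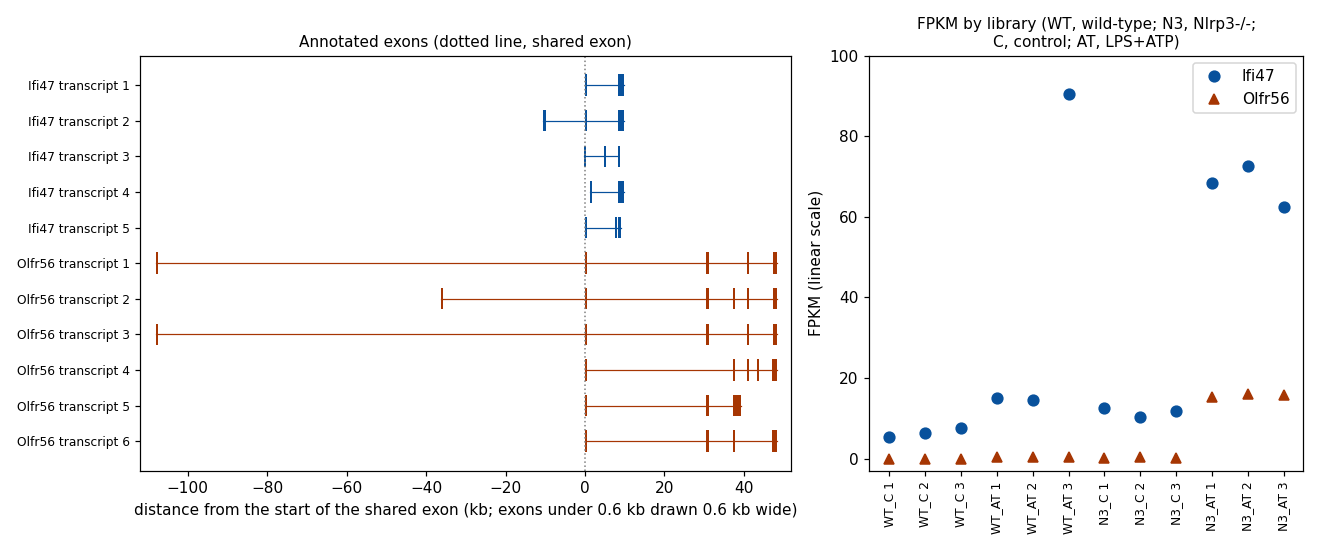
Left, annotated exons of each transcript of Ifi47 (blue) and Olfr56 (red) by distance in kb from the start of the exon they share (dotted line). Right, FPKM of both genes in the 12 libraries on a linear axis, where Ifi47 is 90.4 FPKM in one stimulated wild-type library and 15.0 and 14.5 FPKM in the others, and Olfr56 is over 1 FPKM in the 3 stimulated Nlrp3-/- libraries only.

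Over the family, the genotype comparison set Nlrp3-/- beside wild-type BMDMs in each state. Without stimulation, 1 of the 8 genes other than Olfr56 was called (Tgtp2, higher), where 6.02% of tested genes were called higher. With LPS+ATP, 1 of these 8 (Igtp, higher) was called, where 4.48% of tested genes were called higher. The median difference of the 8 was -0.02 without and 0.35 with LPS+ATP, beside 0.09 and 0.11 over all tested genes. Median-ratio scaling moved the median of all tested genes by -0.16 without and by -0.17 with stimulation. The called genes were 760 higher and 87 lower without stimulation, or 574 and 147 after that scaling, and 565 higher and 72 lower with LPS+ATP, or 431 and 126.

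Without the fold limit, 7 of the 8 passed the adjusted p without stimulation, 3 higher (Igtp, Iigp1 and Tgtp2) and 4 lower (Irgm1, Irgm2, Tgtp1 and Gm12250), where 47.8% of tested genes passed. With LPS+ATP 5 of the 8 passed, with Igtp, Irgm2, Iigp1 and Tgtp2 higher and Tgtp1 lower, where 48.5% passed. After median-ratio scaling, 2 of the 8 were higher and 4 lower without stimulation, and 3 were higher (Igtp, Irgm2 and Tgtp2) and 3 lower (Irgm1, Tgtp1 and Gm12250) with LPS+ATP. The interaction passed for 6 of the 8 without the fold limit and for 0 with it by limma, where 27.7% and 2.15% of tested genes passed. It was positive for Irgm1, Irgm2, Igtp and Gm12250 and negative for Iigp1 and Tgtp2. On the log2 scale, the 3 regulatory IRGs and Gm12250 thus rose more, and Iigp1 and Tgtp2 less, in Nlrp3-/- than in wild-type BMDMs. The interaction of Iigp1, though, had an adjusted p of 0.0599 by limma without the filter on low values. In FPKM, mean Iigp1 went from 2.71 to 108 in Nlrp3-/- and from 1.49 to 89.4 in wild-type BMDMs. Mean Tgtp2 went from 5.51 to 172 and from 2.16 to 111 FPKM, and mean Irgm1 from 9.27 to 94.7 and from 13.9 to 104 FPKM. The order of the rises thus depends on the scale. Both genotype comparisons and both stimulation comparisons share libraries, so their values are given side by side only.

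**Figure D4:**
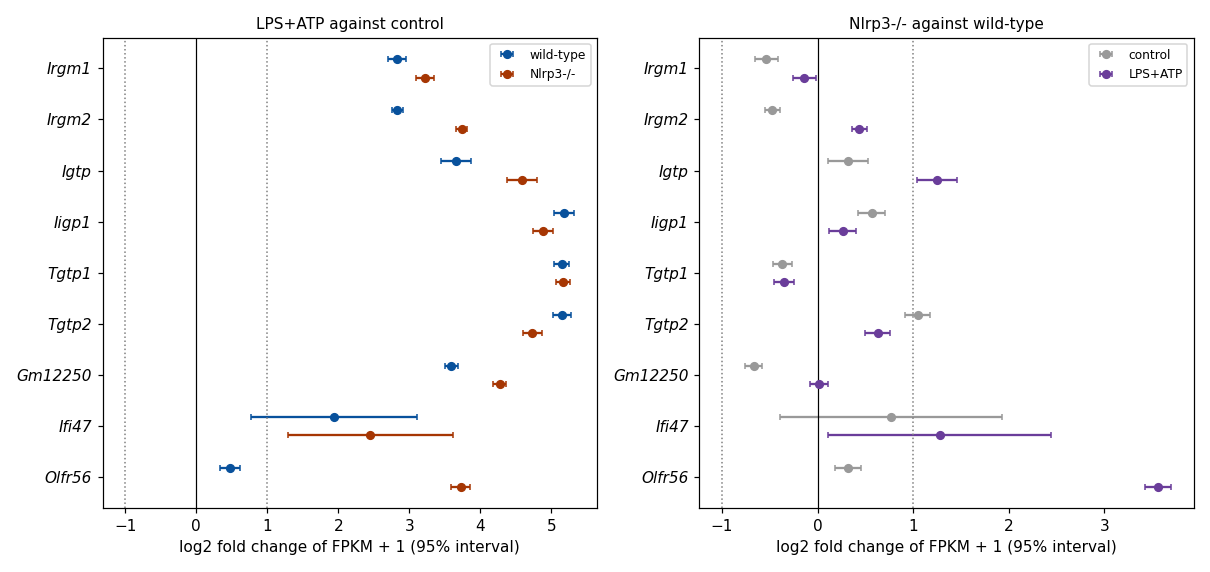
Log2 fold changes of FPKM + 1 with 95% intervals for the 9 genes, left for LPS+ATP against control in each genotype and right for Nlrp3-/- against wild-type in each state. Dotted lines mark the fold limit of 1. The stimulation changes lie between 1.94 and 5.18 for all genes but Olfr56, while most genotype differences lie inside the dotted lines.

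Other IRG loci, listed with earlier results of these data known, followed the stimulation in part. Of 10 in the table, 9 were tested, and 6 rose and 0 fell by limma in each genotype. Over all tested genes, 8.25% rose in wild-type and 6.64% in Nlrp3-/- BMDMs. At the adjusted p without the fold limit, 2 loci were lower in each genotype, where 76.4% and 74.3% of tested genes passed in either direction. Gm4951, an 86.3% identical relative of Iigp1 over 1280 bases, went from between 1.59 and 2.14 to between 55.3 and 58.6 FPKM in wild-type BMDMs, a log2 fold change of 4.33. Gm18853 rose by 3.02, F830016B08Rik by 2.77, Gm4841 by 2.63, Gm5431 by 2.19 and Gm12185 by 1.32 in wild-type BMDMs, and by 2.99, 3.33, 3.31, 1.86 and 1.67 in Nlrp3-/- BMDMs. Irgq, a distant member of the family, and the pair 9930111J21Rik1 and 9930111J21Rik2 were not called. Irgc1, which is expressed in testis, was at most 0.194 FPKM and was not tested.

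By genotype, 9930111J21Rik2 was called in both states. It was 2.82, 2.46 and 2.59 FPKM in unstimulated wild-type and 8.96, 9.41 and 9.28 FPKM in unstimulated Nlrp3-/- BMDMs, a difference of 1.50 (adjusted p = 4.56e-10 by limma), and the difference with LPS+ATP was 1.43. Its copy 9930111J21Rik1, 99.0% identical over 3221 bases, was lower in Nlrp3-/- BMDMs by -0.35 and -0.43. In wild-type BMDMs without stimulation 9930111J21Rik1 was the higher of the pair, with a mean of 7.76 against 2.62 FPKM, and in Nlrp3-/- BMDMs 9930111J21Rik2 was, with 9.22 against 5.87 FPKM. With LPS+ATP, Gm4841 was higher (1.02) and Gm5431 lower (-1.09) in Nlrp3-/- BMDMs. Gm5431 was 8.64, 9.13 and 20.6 FPKM in stimulated Nlrp3-/- and 27.5, 24.9 and 26.7 FPKM in stimulated wild-type BMDMs, so that 1 library was nearer to the other genotype. Gm5431 is 95.7% identical to 9930111J21Rik1 over 2961 bases.

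The 8 genes on chromosome 11 lie on the chromosome of the deleted gene, and whether their position has a part in the genotype differences was not tested. Within 2 Mb of Nlrp3, where Igtp, Irgm2 and Gm12250 lie, 2 of 62 tested genes (3.23%) were called by genotype without and 5 (8.06%) with LPS+ATP, beside 6.71% and 5.05% of all tested genes. Within 12 Mb, 18 of 274 (6.57%) and 17 of 274 (6.2%) were called. These counts include genes described here. Igtp is among those called with LPS+ATP within 2 Mb. Within 12 Mb, Tgtp2 and 9930111J21Rik2 are among those called without stimulation, and Igtp, Olfr56, 9930111J21Rik2 and Gm5431 among those called with it.

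**Figure D5:**
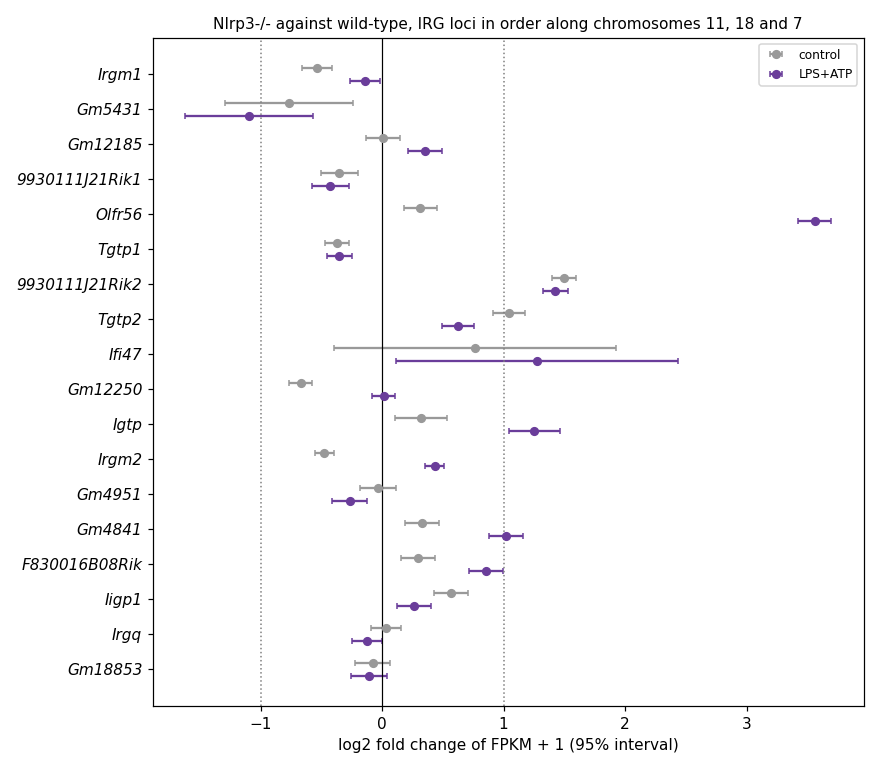
Log2 differences of FPKM + 1 between Nlrp3-/- and wild-type BMDMs with 95% intervals for the 18 tested genes of the family and its neighbours, in order along chromosomes 11, 18 and 7. Tgtp1 and 9930111J21Rik1 lie left of 0 and their near copies Tgtp2 and 9930111J21Rik2 right of 0 in both states.

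The genes of interferon signalling, which lie upstream of the IRGs, rose with LPS+ATP in part. Of 11 tested receptors, kinases and factors, 3 rose and 1 fell in wild-type BMDMs. Jak2, a kinase of the gamma interferon receptor, rose by 2.94, the interferon regulatory factor Irf1 by 2.74 and Stat2 by 2.25, while Ifngr1, a chain of that receptor, fell by 2.12. In Nlrp3-/- BMDMs the rises were 2.38 for Jak2, 1.89 for Irf1, 2.58 for Stat2 and 1.12 for Irf9, and Ifngr1 fell by 1.67. The median over the 11 was 0.39 in wild-type and 0.62 in Nlrp3-/- BMDMs. Over all tested genes, 19.4% were called in either direction in wild-type and 14.8% in Nlrp3-/- BMDMs. By genotype 0 of the 11 were called in either state by limma, where 6.71% of tested genes were called without and 5.05% with LPS+ATP. Without the fold limit 6 passed the adjusted p without and 7 with LPS+ATP, where 47.8% and 48.5% of tested genes passed. Irf1 varied between replicates, from 64.9 to 112 FPKM in stimulated wild-type and from 50.0 to 83.9 FPKM in stimulated Nlrp3-/- BMDMs.

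Ifng, which encodes gamma interferon and is known mainly from T and NK cells, was listed at 0 in the 3 unstimulated wild-type libraries and was 3.21, 3.68 and 3.43 FPKM with LPS+ATP. In Nlrp3-/- BMDMs it was at most 0.0700 FPKM without and 3.01, 2.85 and 3.73 FPKM with LPS+ATP, and the genotype difference with LPS+ATP was -0.09 with an adjusted p of 0.391 by limma. Ifnb1, the beta interferon that macrophages make after LPS, was listed at 0 in unstimulated wild-type BMDMs, was between 0.292 and 0.708 FPKM with LPS+ATP and between 0.676 and 0.737 FPKM in stimulated Nlrp3-/- BMDMs, and was too low to be tested.

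Guanylate-binding proteins, a second family of interferon-induced GTPases that act on the same vacuoles, rose in 9 of 10 tested genes in each genotype. The largest rise was that of Gbp5, with log2 fold changes of 6.21 (wild-type) and 6.31 (Nlrp3-/-), and Gbp8 was not called. The median of the list was 4.21 and 4.17. Over all tested genes, 8.25% rose in wild-type and 6.64% in Nlrp3-/- BMDMs. By genotype 0 of the 10 were called by limma in either state, where 6.71% of tested genes were called without and 5.05% with LPS+ATP. Without the fold limit 6 passed without and 3 with LPS+ATP, where 47.8% and 48.5% of tested genes passed. The genes that mark vacuoles for these GTPases, which are the ATG conjugation genes, their LC3 and GABARAP substrates and ubiquitin ligases, changed less. Of 13 tested, 2 rose (the adaptor Sqstm1 by 2.22 and the ubiquitin ligase Trim21 by 1.55) and 1 fell (Atg7 by 1.30) in wild-type BMDMs, 2 rose and 0 fell by limma in Nlrp3-/- BMDMs, and 0 were called by genotype. Over all tested genes, 19.4% were called with stimulation in wild-type and 14.8% in Nlrp3-/- BMDMs. By genotype, 6.71% were called without and 5.05% with LPS+ATP. By genotype without the fold limit, 2 of the 13 were higher and 3 lower without stimulation, where 47.8% of tested genes passed. With LPS+ATP 1 was higher and 5 were lower, where 48.5% passed. With stimulation, without the fold limit, 7 rose and 5 fell in wild-type BMDMs, where 76.4% of tested genes passed, and 4 rose and 6 fell in Nlrp3-/- BMDMs, where 74.3% passed.

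The genes most like the family were found by Pearson's r over the 12 libraries with the mean standardised profile of the 8 genes other than Olfr56. Cxcl9 and Cxcl10, chemokines that interferon induces, had r = 0.998 and 0.997. H2-M2, a nonclassical MHC class I gene, Csf3, the granulocyte colony-stimulating factor, and Hk2, a hexokinase, had r = 0.997 each. Pearson's r does not measure the size of a change. Hk2 only went from between 11.8 and 12.4 to between 28.9 and 30.4 FPKM in wild-type BMDMs with LPS+ATP. Cxcl9 was at most 0.990 FPKM without stimulation, between 175 and 192 FPKM in stimulated wild-type and between 472 and 487 FPKM in stimulated Nlrp3-/- BMDMs. The family's own members had r of 0.981 to 0.995, apart from Ifi47 at 0.858 and Olfr56 at 0.704. All members but Olfr56 are part of the profile, so their r is raised by their own values and is not comparable with that of other genes. The points are 4 groups of 3 libraries, so r mostly follows the group means.

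The labels were checked on Nlrp3, which was between 9.24 and 10.1 FPKM in unstimulated and between 32.1 and 33.6 FPKM in stimulated wild-type BMDMs and was listed at 0 in all 6 Nlrp3-/- libraries. The macrophage markers were present in every group, with a summed FPKM of at least 10580, most of it from Lyz2. Of their 8 tested rows, 4 were lower and 0 higher in Nlrp3-/- BMDMs in each state at the adjusted p of limma without the fold limit. In either direction, 47.8% of tested genes passed without and 48.5% with LPS+ATP. With the fold limit, 0 of the 8 rows were called by genotype. Over all tested genes, 6.71% were called without and 5.05% with LPS+ATP. Cd68 was lower by -0.73 without and -0.39 with LPS+ATP, and Fcgr1 by -0.40 and -0.71. Other measures moved with genotype beside the IRGs. The summed FPKM of 5 fibroblast markers was between 157 and 183 in wild-type and between 889.8 and 1180 in Nlrp3-/- libraries. That of 7 neutrophil and granulocyte precursor markers was between 109 and 356 in wild-type and between 487 and 1789 in Nlrp3-/- libraries. That of 7 T and NK cell markers was at most 0.872 in wild-type and between 5.33 and 7.59 in Nlrp3-/- libraries, mostly from Gzmb and Nkg7, while the T cell receptor chain gene Cd3d was at most 0.0789 FPKM. B cell markers summed to at most 1.57 in wild-type and at most 5.11 in Nlrp3-/- libraries, and dendritic cell markers to at most 0.787 in any. The X-linked Xist was at most 0.0416 FPKM in wild-type and at least 32.8 FPKM in Nlrp3-/- libraries, and 4 Y-linked genes were listed at 0 in the Nlrp3-/- libraries only, so that genotype and sex cannot be told apart. Nnt, a mitochondrial transhydrogenase gene that some C57BL/6 substrains carry in a defective form, was at most 1.47 FPKM in the Nlrp3-/- libraries and from 4.09 to 10.3 FPKM in the others. The part of these differences in the IRG values was not tested.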

How the data were processed

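Total RNA of 12 BMDM samples was sequenced. The authors deposited the results as FPKM for each gene in each library, and the aligner, counter and annotation are not given in the sources used here. The submitters' processing notes name the build GRCm39 and DESeq2 1.24.0. FPKM holds no counts, so the depth in reads is unknown and no interval for counting error can be given. Between 21122 and 22613 genes were above 0 in a library.

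The members and lists were chosen with earlier results of these data known. Values were tested as log2(FPKM + 1) with limma 3.58.1 (R 4.3.3) in one model of 4 group means with a variance trend, over 12622 genes with at least 1 FPKM in at least 3 libraries, with Benjamini-Hochberg adjustment over all of them. The 2 stimulation contrasts, the 2 genotype contrasts and their interaction were estimated. On simulated data for stimulation in wild-type BMDMs, 194 of 200 genes given a log2 change of 1.5 (97%) were called among 12622, and so were 2 genes that were not changed.

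Positions, exons and transcripts came from GENCODE M21 (GRCm38), which held 55154 of the 55335 gene identifiers, and not from the build in the notes. Promoters came from the RefSeq table of GRCm38.p6, in which 8 of the 9 genes were used, and near copies were found with blastn 2.17.0+ on the longest transcripts. Motifs were searched on both strands, and the GAS reads alike on both. Plots used matplotlib 3.10.9.

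Genes named were the 9 members, Nlrp3, called genes of the interferon and IRG lists, the largest changes in the other lists, and the 5 genes most like the family. One gene of the interferon list is not reported here and was left out of its counts. Gm12185, 9930111J21Rik1, Irgq, Irgc1, Ifnb1 and the sex-linked and marker genes were named as neighbours, copies or checks. Alternatives were a pseudocount of 0.1, no filter or one of 5 FPKM, TPM, median-ratio scaling, no fold limit, no variance trend, the compared groups alone, a replicate block, near copies and overlapping genes summed, and each library left out in turn.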

Additional observations from a re-analysis of the deposited data

Results flagged for a closer look

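For 6 of the 8 genes other than Olfr56 the change with LPS+ATP differed between Nlrp3-/- and wild-type BMDMs by a test of the difference itself, the interaction term of limma over all tested genes, without a limit on its size. The term was 0.39 for Irgm1 (adjusted p = 0.0032), 0.91 for Irgm2 (adjusted p = 4.59e-07), 0.93 for Igtp (adjusted p = 0.000426) and 0.68 for Gm12250 (adjusted p = 1.18e-05), all with a larger rise in Nlrp3-/- BMDMs. It was -0.30 for Iigp1 (adjusted p = 0.0286) and -0.42 for Tgtp2 (adjusted p = 0.00354), with a smaller rise in Nlrp3-/- BMDMs. The term of Iigp1 missed the threshold with no filter (adjusted p = 0.0599) and in 5 of the 12 fits that left out a library, by replicate 2 of unstimulated and 3 of stimulated wild-type BMDMs and by replicate 1 of unstimulated and 2 and 3 of stimulated Nlrp3-/- BMDMs (adjusted p up to 0.0657). Olfr56 passed the filter only through the group in which it is high and is not counted here. Over all tested genes 27.7% passed the same test. Rises are compared here on the log2 scale. The terms of Irgm1, Irgm2 and Gm12250 combine a lower level in unstimulated Nlrp3-/- BMDMs with genotype differences of -0.14, 0.43 and 0.01 after stimulation. Those of Iigp1 and Tgtp2 combine a higher level in unstimulated Nlrp3-/- BMDMs with genotype differences of 0.26 and 0.63 after stimulation.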

How the results depend on the processing

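Counts here include Olfr56, which passed the filter only through the group in which it is high. The counts of genes called with stimulation, 8 in wild-type and 9 in Nlrp3-/- BMDMs, stayed within 1.5 times of these values under all alternatives run. The count of 1 gene called by genotype without stimulation became 2 with a pseudocount of 0.1, which added Olfr56. It became 8 without the fold limit, where 47.8% of tested genes passed. After median-ratio scaling it was 0, and it was 0 with near copies and overlapping genes summed. The 2 called with LPS+ATP, Igtp and Olfr56, became 6 without the fold limit, where 48.5% of tested genes passed. The 1 interaction, that of Olfr56, became 7 without the fold limit, where 27.7% passed, and 0 with genes summed. The values of Olfr56 are a description only, so its calls are not results about the family. Leaving out each library in turn gave 0 to 1 genes without stimulation, 1 to 3 with LPS+ATP and 0 to 2 interactions. Replicates 1 and 3 of unstimulated wild-type BMDMs, replicate 3 of stimulated wild-type BMDMs and each stimulated Nlrp3-/- replicate moved these counts, the last because Olfr56 then failed the filter. Where a group kept 2 libraries, the spread was pooled over all groups.

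The direction turned after median-ratio scaling for Gm12250 by genotype with LPS+ATP (-0.20) and for the interaction of Tgtp1 (-0.093). Summing Tgtp1 with Tgtp2 turned the values of Tgtp1 to 0.59 and 0.23 by genotype and to -0.37 for the interaction. With each library left out, the difference of Gm12250 ran from -0.012 to 0.030 and the interaction of Tgtp1 from -0.013 to 0.066. The sums of Tgtp1 with Tgtp2 and of Ifi47 with Olfr56 were also fitted after median-ratio scaling and without replicate 3 of stimulated wild-type BMDMs, which was chosen after seeing the data. Causes were not tested beyond what these settings change themselves. Of 966 values of single genes under the alternatives, 928 kept direction and side of the threshold, 26 passed it newly, 4 lost it and 8 reversed. The tally includes Olfr56 and the setting without the fold limit, which repeats the main values and supplies 18 of the 26. A fit that leaves out a library keeps the fold changes of comparisons that do not use it, so many values could not move.

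With the replicate number as a block, the counts were 8, 9, 1, 2 and 1, the same as without it, and no call of a member changed. Without the fold limit, Irgm1 by genotype with LPS+ATP passed with the block (adjusted p = 0.0435 by limma). Deviations of same-numbered libraries correlated between -0.057 and 0.053 over 12 pairs, so the numbers were not taken as pairing the samples. Without read counts, the depth behind low values such as those of Olfr56 is unknown.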
